A study of Homo sapiens with 4 samples.

Results

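The inter-alpha-trypsin inhibitor family was examined in MHCC97H cells, an established human HCC (hepatocellular carcinoma) cell line, after knockdown of UBXN1 by shRNA. The 7 listed genes (ITIH1, ITIH2, ITIH3, ITIH4, ITIH5, TNFAIP6 and BIK) were looked up by symbol among the 61541 gene IDs of the deposited table, and all 7 were found. ITIH2 was chosen by its large fall in this same comparison of shUBXN1 with shCon and the other genes by name, so the values of ITIH2 are given as a description with no test. The control cells (shCon) and the UBXN1-knockdown cells (shUBXN1) were each sequenced in 2 libraries, and no other allele, agent or time point separates the groups in the labels. The labels call both groups transfected cells, the paper's methods describe lentiviral delivery of the shRNA from pLKO.1 and name the control shRFP, and which UBXN1 shRNA the sequenced cells carried is not stated. The labels do not say whether the libraries came from separate cultures, so the p-values measure only the spread between these libraries.

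Inter-alpha-trypsin inhibitors are blood plasma proteins made by hepatocytes. Heavy chains, encoded by the ITIH genes, are joined by ester bonds to a chondroitin sulfate chain on bikunin, a small protease inhibitor with a pair of Kunitz domains. The secreted complexes hand their heavy chains to hyaluronan, a step carried out by the protein that TNFAIP6 encodes (also known as TSG-6), and this crosslinks and stabilises the hyaluronan coat of cells. Bikunin is encoded by AMBP. The symbol BIK belongs to a different gene, the BCL2-interacting killer of the apoptosis machinery, so BIK was kept as listed but described apart from the family, and AMBP and the remaining heavy chain gene ITIH6 were added as partners.

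A heavy chain precursor is cut after an aspartate residue, which then carries the bond to chondroitin sulfate. The coding sequences of the 6 ITIH genes were translated in frame from their canonical GENCODE 44 transcripts and searched for the conserved stretch at which the precursor is cut. The stretch was present once in ITIH1, ITIH2 and ITIH3 and had no exact match in ITIH4, ITIH5 and ITIH6. The segments below are shown because they carry the attachment site of the heavy chains, with the 6 codons of the stretch in capitals, the first of which encodes the aspartate.
ITIH2: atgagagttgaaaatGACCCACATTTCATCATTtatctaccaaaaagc
ITIH1: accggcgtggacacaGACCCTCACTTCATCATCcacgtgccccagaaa
ITIH3: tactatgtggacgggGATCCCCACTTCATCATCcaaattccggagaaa
On GRCh38 the ITIH2 segment starts at chr10:7738752-7738758 in exon 16 and continues at chr10:7743146-7743186 in exon 17 of 21, on the plus strand. The ITIH1 segment lies at chr3:52788060-52788066 and chr3:52788232-52788272, and the ITIH3 segment at chr3:52806132-52806138 and chr3:52806293-52806333, both on the plus strand and both across the junction of exons 17 and 18 of 22. In each gene the junction falls at the same place, 7 bases into the segment. Of the 18 capital bases, 15 were identical between ITIH2 and ITIH1 and 14 between ITIH2 and ITIH3, against 28 and 24 of the 48 bases of the whole segment.

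The libraries held 23373700 to 27380508 counts in total. UBXN1 itself was at 67.1 and 77.3 CPM (counts scaled to library size with edgeR's TMM factors) in shCon and at 16.8 and 18.5 CPM in shUBXN1, so the targeted gene was low in the libraries labelled as knockdown. Among hepatocyte markers, KRT8, KRT18, HNF4A and ALB were detected in each library, and GPC3 had 0 counts in all 4. The summed level of the 12 hepatocyte markers was 4470 and 4626 CPM in shCon and 3473 and 4062 CPM in shUBXN1, most of it from KRT8 and KRT18. The 6 mesenchymal markers summed to 33.3 and 33.8 CPM in shCon against 17.3 and 19.8 CPM, most of it from LUM, and the 8 leukocyte and endothelial markers to 43.3 and 46.0 CPM against 66.9 and 65.8 CPM, most of it from PECAM1 and CD79A. The defining leukocyte genes CD3E and PTPRC had 0 and at most 4 counts in any library. Counts on the mitochondrial genome made up 5.28% and 5.59% of the shCon libraries and 7.43% and 8.27% of the shUBXN1 libraries. The part of these shifts in the results below was not tested.

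Among the heavy chains, MHCC97H cells transcribed ITIH2 and had next to no counts assigned to the others. ITIH2 (ENSG00000151655) lies on the plus strand of chromosome 10 of GRCh38 from 7703316 to 7749520, and shares no exon bases with another annotated gene. The shCon libraries held 6067 and 5210 counts of it, and the shUBXN1 libraries 882 and 948. In CPM this was 228 and 222 for the control cells and 35.6 and 40.5 for the knockdown cells. Both knockdown libraries lay far below both control libraries, and the libraries of a group lay close together. The means were 225 ± 4.09 CPM (SD, n = 2) and 38.1 ± 3.43 CPM (SD, n = 2), so 16.9% of the control level was left. The fitted log2 fold change was -2.56 (standard error 0.0838). In bulk RNA, fewer cells with the transcript and less transcript per cell cannot be told apart.

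**Figure D1:**
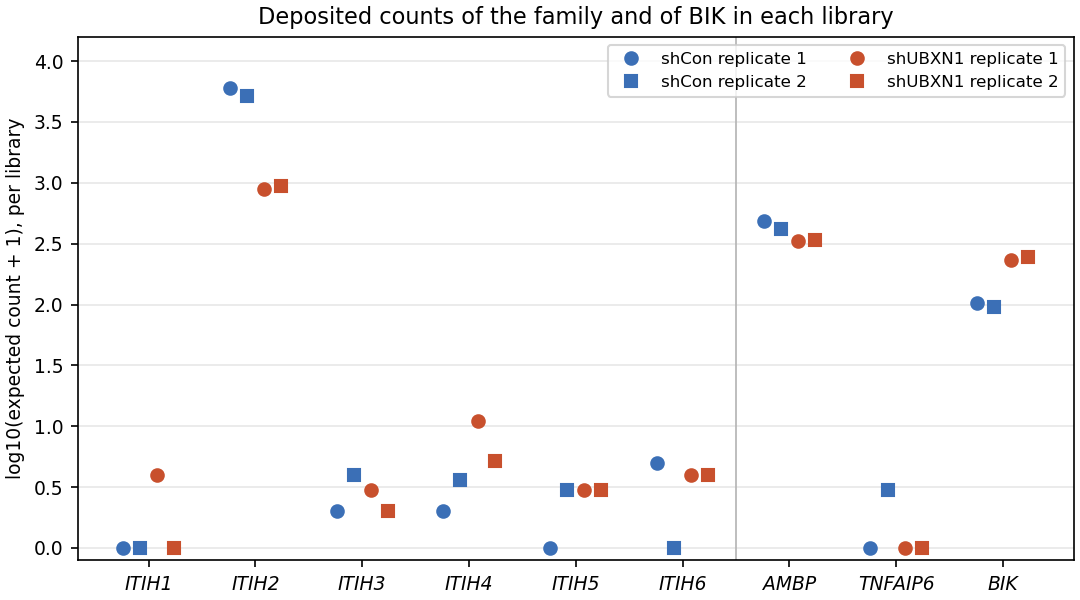
Deposited counts of the heavy chain genes (left of the line), of AMBP and TNFAIP6 and of BIK in each of the 4 libraries, on a log10(count + 1) axis, with circles for replicate 1 and squares for replicate 2. ITIH2 stands at 882 to 6067 counts, whereas the other heavy chain genes stand at 0 to 10.1 counts in every library.

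Per length, the level of ITIH2 was 147 and 139 TPM (a share of all transcripts, from the deposited counts and gene lengths) in shCon and 24.6 and 25.9 TPM in shUBXN1. Ranked by TPM, with 23782 to 25703 genes above 0 per library, ITIH2 stood at place 1056 and 1106 in the control libraries and at place 5757 and 5336 in the knockdown libraries. Of the 2217 genes tested with a mean of 100 CPM or more in shCon, 3 had a lower log2 fold change than ITIH2, and of all 16863 genes tested 91 had. These places describe how the gene was picked and carry no test.

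The heavy chain genes of chromosome 3 were close to silent in both groups. ITIH1 (chromosome 3, 52777595 to 52792068) had 0 counts in both shCon libraries and 3 and 0 in shUBXN1. ITIH3 (chromosome 3, 52794768 to 52808799) had 1 and 3 counts in shCon and 2 and 1 in shUBXN1. ITIH4 (chromosome 3, 52812962 to 52830688), a heavy chain relative that is not bound to bikunin, had 1 and 2.61 counts in shCon and 10.1 and 4.2 in shUBXN1. For ITIH1 and ITIH3 the groups overlapped, whereas the few ITIH4 counts were higher in both knockdown libraries. ITIH4 is uncertain, because a readthrough gene on the same strand (ENSG00000243696) covers 70.3% of its exon bases and took 154 and 246 counts in shCon and 162 and 212 in shUBXN1, and the fractional counts show that reads had been divided between genes. The antisense gene ITIH4-AS1, which shares 4.89% of the ITIH4 exon bases, had 1 count in 1 shUBXN1 library and 0 in the others. The readthrough gene did not separate the groups, and neither did its sum with ITIH4, at 155 and 249 counts in shCon and 172 and 216 in shUBXN1.

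ITIH5 and ITIH6, heavy chain genes outside that cluster, were as low. ITIH5 (chromosome 10, 7559270 to 7666998), whose product is found in many tissues outside the liver, had 0 and 2.01 counts in shCon and 2 and 2 in shUBXN1. It lies 36318 bases from ITIH2 and is read from the opposite strand, so that an almost silent and an abundant member stood side by side. ITIH6 (X chromosome, 54748918 to 54798255) had 4 and 0 counts in shCon and 3 and 3 in shUBXN1. TNFAIP6 (chromosome 2, 151357592 to 151380046), the enzyme of heavy chain transfer and a target of inflammatory signals, had 0 and 2 counts in shCon and 0 in both shUBXN1 libraries. A count of 0 allows a level of up to 0.113 to 0.128 CPM here (3 counts, counting error only). These 6 genes did not pass the filter on low counts, and in edgeR's quasi-likelihood test without that filter none had an adjusted p under 0.05 (0.337 to 0.912). At this depth a difference in these genes was not detectable.

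ITIH2 accordingly made up nearly all transcript assigned to the 6 ITIH genes in both groups. Its share of their summed TPM was 99.9% and 99.9% in shCon and 97.9% and 99.1% in shUBXN1. The sum leaves out the readthrough gene over ITIH4, at 2.08 and 3.67 TPM in shCon and 2.51 and 3.23 TPM in shUBXN1. With its reads counted as ITIH4, the share of ITIH2 would be lower. The heavy chain genes together held 6073 and 5218 counts in shCon and 902 and 958 in shUBXN1. The 6 low genes (ITIH6 and TNFAIP6 included) summed to 6 and 9.62 counts in shCon and to 20.1 and 10.2 counts in shUBXN1.

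AMBP, the bikunin gene and partner of the heavy chains, was expressed in both groups and fell by a small amount. AMBP (ENSG00000106927, chromosome 9, 114060127 to 114078328, minus strand) was at 18.0 and 17.8 CPM in shCon and at 13.3 and 14.5 CPM in shUBXN1. Both knockdown libraries lay below both control libraries. On the log2 scale the difference was -0.37 with a standard error of 0.113 (edgeR's quasi-likelihood test, adjusted p = 0.0132 by Benjamini-Hochberg over all genes tested). Of all genes tested, 28.2% were called lower at an adjusted p under 0.05 and 28.0% higher (56.2% in either direction), and for 78.0% the groups did not overlap. At a fold change of at least 2 with an unadjusted p under 0.05, the shares were 6.09% lower and 11.8% higher. The call was lost without the first shCon library (adjusted p = 0.0684 in edgeR), without the second (adjusted p = 0.0518 in edgeR) and in DESeq2 (adjusted p = 0.063). On the TPM scale the ratio of ITIH2 to AMBP was 5.06 and 5.0 in the shCon libraries and 1.07 and 1.12 in the shUBXN1 libraries. The heavy chain transcript therefore outnumbered the bikunin transcript in the control cells and was close to it after knockdown.

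**Figure D2:**
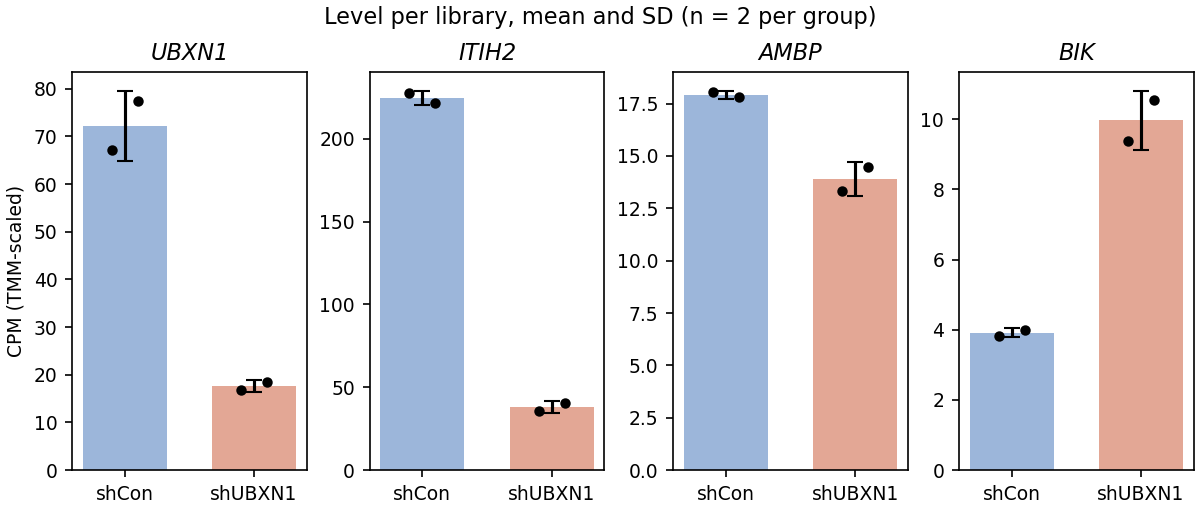
CPM of UBXN1, ITIH2, AMBP and BIK in each library (points), with bars for the mean and error bars for the SD of the 2 libraries per group, each axis starting at 0. ITIH2 goes from 225 to 38.1 CPM, AMBP from 17.9 to 13.9 CPM and BIK from 3.91 to 9.96 CPM.

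BIK, which encodes a BH3-only protein that promotes apoptosis at the endoplasmic reticulum and mitochondria, rose. BIK (ENSG00000100290, chromosome 22, 43110750 to 43129712, plus strand) had 102 and 94 counts in shCon and 232 and 247 in shUBXN1. Its level was 3.83 and 4.0 CPM in shCon and 9.37 and 10.6 CPM in shUBXN1, with no overlap between the groups. The difference was 1.35 on the log2 scale with a standard error of 0.174 (adjusted p = 1.45e-05 in edgeR), and it kept its direction and its call in every setting tried. Of the 8 BH3-only genes, 7 were tested, of which 3 rose, 2 fell and 2 did not pass, with a median log2 fold change of -0.10 against 0.016 over all genes tested. So short a list cannot be set apart from the 56.2% of all genes tested that were called in either direction. The risers were BMF (log2 fold change 1.62), BIK and PMAIP1 (1.02), which encodes NOXA, and BAD fell (-0.80), as did BCL2L11 (-0.27, adjusted p = 0.0456 in edgeR), which lost its call in 9 of the 13 alternatives, among them those without either shCon library or the first shUBXN1 library (highest adjusted p 0.288). BMF, whose product binds the cytoskeleton in healthy cells, was at 17.1 and 14.6 CPM in shCon and at 51.8 and 45.8 CPM in shUBXN1.

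Hyaluronan is the receiver of the heavy chains, and of 5 genes for its synthesis 4 were tested, of which 3 fell and none rose, with a median log2 fold change of -0.53. Over all genes tested 28.2% fell, and 4 genes are few to set against that share. The genes that fell were the hyaluronan synthase HAS2 and the suppliers of its sugar substrate UGDH and UGP2. HAS2 was at 13.8 and 13.8 CPM in shCon and at 8.15 and 9.95 CPM in shUBXN1 (log2 fold change -0.61, adjusted p = 0.00195 in edgeR). UGDH, the enzyme that makes UDP-glucuronic acid, was the most abundant of them, with 754 ± 4.0 CPM in the control cells and 488 ± 37.7 CPM in the knockdown cells (SD, n = 2 each). HAS3 was at 19.4 and 16.9 CPM as group means and did not pass the test (adjusted p = 0.149 in edgeR).

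Of 10 genes of hyaluronan breakdown, 9 were tested, of which 3 rose, 2 fell and 4 did not pass, close to the 56.2% of all genes tested that were called. Their median log2 fold change was near 0 (0.051) and changed sign between settings (-0.073 to 0.13). CEMIP, which binds hyaluronan and is needed for its breakdown outside lysosomes, fell from 121 and 115 CPM in shCon to 30.9 and 30.5 CPM in shUBXN1 (log2 fold change -1.94, standard error 0.0781, adjusted p = 2.09e-10 in edgeR). The lysosomal glucuronidase GUSB fell by 1.02 on the log2 scale. The hyaluronidase gene HYAL3 rose at a low level (from 1.88 to 4.47 CPM as group means). HEXA (log2 fold change 0.20) passed the test with all libraries and not without either shCon library (adjusted p = 0.276 and 0.239 in edgeR).

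Among hyaluronan receptors and the proteoglycans and link proteins that bind it, 6 of 16 genes passed the filter. Of these, 2 rose and 3 fell, with a median log2 fold change of -0.43. Of all genes tested 56.2% were called in either direction, and 6 genes are few to set against that share. The link protein gene HAPLN3 was at 3.48 and 4.26 CPM in shCon and at 22.8 and 23.6 CPM in shUBXN1 (log2 fold change 2.59, standard error 0.141, adjusted p = 3.25e-09 in edgeR). The large proteoglycan gene VCAN moved the other way (-4.65). CD44, the main hyaluronan receptor and the most abundant gene of the list, fell from 379 ± 5.10 to 283 ± 17.7 CPM (SD, n = 2 each), a log2 fold change of -0.42 (adjusted p = 0.000319 in edgeR). HMMR, a hyaluronan-binding protein that also works at the mitotic spindle, fell by 0.67 on the log2 scale. The proteoglycan gene BCAN was at 2.85 and 4.76 CPM as group means, and its call (log2 fold change 0.74) was lost without the second shCon library (adjusted p = 0.157 in edgeR) and in DESeq2 (adjusted p = 0.0623). PTX3, a partner of TNFAIP6 in building hyaluronan coats, had 0 counts in all 4 libraries.

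The chondroitin chain that ties heavy chains to bikunin is built by a set of enzymes of the secretory pathway, and 19 of the 20 genes listed were tested. Of these, 7 rose, 3 fell and 9 did not pass, with a median log2 fold change of 0.18, and the share called was near the 56.2% of all genes tested. CHST11, which sulfates the chain, was at 21.9 and 24.7 CPM in shCon and at 62.5 and 61.9 CPM in shUBXN1 (log2 fold change 1.42, adjusted p = 9.96e-09 in edgeR). The sulfotransferase gene CHST7 (1.09) and CHPF2, which acts in chain polymerisation (1.02), rose as well. B3GALT6, which adds a sugar of the linker between core protein and chain, fell from 30.8 and 30.1 CPM to 12.1 and 14.7 CPM (log2 fold change -1.19, adjusted p = 6.65e-07 in edgeR). These 4 genes were named because they changed most among the called genes of the list with a mean log2 CPM above 1.

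**Figure D3:**
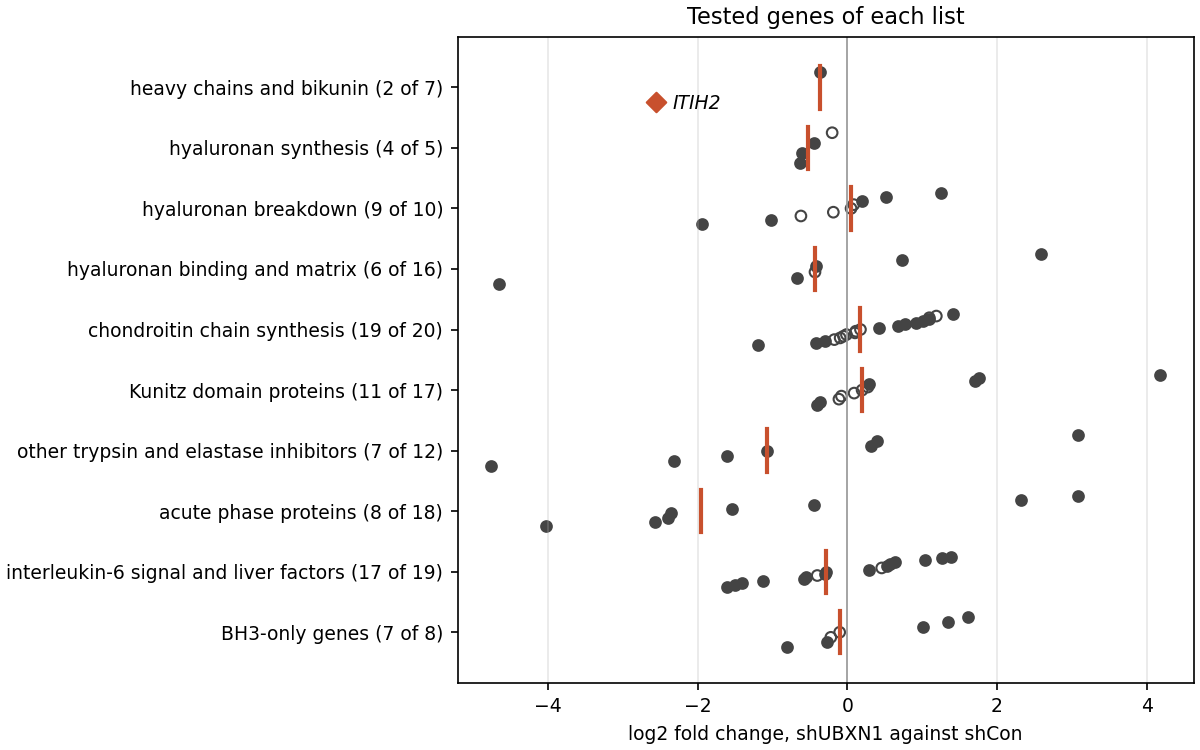
Log2 fold change of shUBXN1 against shCon for the tested genes of each list (number tested of number listed in brackets), with filled circles for an adjusted p under 0.05, open circles for the rest, a diamond for ITIH2, which was not tested, and a vertical bar for the list median without ITIH2. The synthesis genes of hyaluronan all lie below 0, from -0.63 to -0.20, and the other lists lie on both sides of 0 except for the heavy chain list.

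Bikunin is one of several Kunitz domain proteins, and 11 of the 17 genes of that list were tested. Of these 4 rose, AMBP and TFPI2 fell and 5 did not pass, with a median log2 fold change of 0.20. The share called was near the 56.2% of all genes tested. SPINT1 and SPINT2, membrane-bound inhibitors of the proteases hepsin and matriptase, rose by 1.76 and 1.70 on the log2 scale. SPINT1 was at 29.3 and 28.3 CPM in shCon and at 95.2 and 101 CPM in shUBXN1. COL7A1, a collagen with a Kunitz domain, was at 0.750 and 0.936 CPM in shCon and at 18.7 and 11.9 CPM in shUBXN1. The call of TFPI2 (log2 fold change -0.40) was lost without the first shCon library (adjusted p = 0.115 in edgeR), without the second (adjusted p = 0.0542 in edgeR), with total count scaling (adjusted p = 0.0596 in edgeR), after removal of the GC trend (adjusted p = 0.0648 in edgeR) and in DESeq2 (adjusted p = 0.092). APLP2, the most abundant gene of the list, was at 1251 and 1436 CPM as group means and missed the threshold (adjusted p = 0.0563 in edgeR), but passed it in 9 of the 13 alternatives.

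Of 12 other inhibitors of trypsin and elastase, 7 were tested, of which 3 rose and 4 fell, with a median log2 fold change of -1.07. Since 56.2% of all genes tested were called in either direction, 7 genes are few to set against that share. The median was 0.35 over the 5 genes left when at least 10 counts were asked of every library, and -0.55 in limma on log2(TPM + 1). SERPINA3, an inhibitor of chymotrypsin and cathepsin G, rose from 2.48 and 2.20 CPM to 19.7 and 20.1 CPM (log2 fold change 3.08, adjusted p = 1.61e-09 in edgeR). The elastase inhibitor gene SERPINB1 fell by 1.07 on the log2 scale. SERPINA1, the main plasma inhibitor of elastase, was at 8.62 and 11.3 CPM as group means, and its call (log2 fold change 0.40) was lost without either shCon library (adjusted p = 0.173 and 0.0633 in edgeR), without the second shUBXN1 library (adjusted p = 0.0856 in edgeR) and in DESeq2 (adjusted p = 0.113).

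ITIH3 and ITIH4 count among the acute phase proteins, plasma proteins whose synthesis in the liver responds to interleukin-6. Of 18 such genes, 8 passed the filter, of which 2 rose and 6 fell, with a median log2 fold change of -1.95. These 8 genes are few to set against the 28.0% higher and 28.2% lower over all genes tested. The median was -0.91 without the first shCon library and -1.09 without the second (10 genes tested in each), -0.97 in limma on log2(TPM + 1), -0.41 without the filter and -0.42 over the 3 genes with at least 10 counts in every library, and DESeq2 called 1 higher and 4 lower. The fibrinogen chain gene FGB was at 9.71 and 9.96 CPM in shCon and at 0.808 and 0.384 CPM in shUBXN1, and FGA was at 6.94 and 8.39 CPM against 1.62 and 1.37 CPM. CP, which encodes ceruloplasmin and is the most abundant of the list, had a log2 fold change of -0.45 that did not pass in DESeq2 (adjusted p = 0.116), with total count scaling (adjusted p = 0.0697 in edgeR) or in limma on log2(TPM + 1) (adjusted p = 0.111). SERPINA3 was the largest riser. CRP, the hallmark acute phase gene, had 0 counts in all 4 libraries and was thus undetected in both groups. SAA4 also had 0 counts throughout, and SAA1 and SAA2 had at most 2 counts in any library.

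The interleukin-6 pathway and liver transcription factors were measured in 17 of 19 genes, of which 7 rose, 8 fell and 2 did not pass. Of all genes tested, 28.0% rose and 28.2% fell. The median log2 fold change of the list was -0.29. The risers were the signal genes IL6ST, JAK1, JAK2, STAT3 and SOCS3 and the transcription factor genes CEBPB and CEBPD, whereas the receptor gene IL6R fell (-0.29). IL6, the gene of interleukin-6 itself, had 0 counts in all 4 libraries. Without the second shCon library JAK1, JAK2, IL6R and HNF4A lost their calls (5 genes then rose and 6 fell), and JAK2 also did in DESeq2 and in limma on log2(TPM + 1). IL6ST, the shared receptor chain, rose by 0.64 on the log2 scale. SOCS3, the feedback inhibitor of the signal, was at 14.3 and 15.4 CPM in shCon and at 35.6 and 42.4 CPM in shUBXN1. The largest falls were those of the transcription factor genes CEBPA (-1.60), PROX1 (-1.5) and FOXA1 (-1.40). CEBPA was at 123 and 128 CPM in shCon and at 36.6 and 46.0 CPM in shUBXN1. The groups did not overlap for SOCS3 or CEBPA, as was so for 78.0% of all genes tested. Of the 12 hepatocyte markers, 11 were tested, of which 2 rose, 7 fell and 2 did not pass. These 11 genes are few to set against the 28.0% higher and 28.2% lower over all genes tested. Among the plasma protein genes on that list FGB (-4.02), TTR (-3.08), ALB (-1.97), TF (-1.96) and APOB (-1.85) fell. TTR was at a low level, with 1.44 CPM in shCon and 0.165 CPM in shUBXN1 as group means. SERPINA1 rose as given above, and AFP and APOA1 did not pass.

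Of 5 genes tested within 500 kb of ITIH2, 1 rose and 2 fell, with log2 fold changes between -0.70 and 0.53. So few genes cannot be set apart from the 56.2% of all genes tested that were called in either direction. KIN, 1442 bases beyond the end of ITIH2, was at 11.9 and 11 CPM in shCon and at 9.46 and 10.9 CPM in shUBXN1 (adjusted p = 0.328 in edgeR). ATP5F1C, a subunit of ATP synthase, fell by 0.41 on the log2 scale and TAF3, a subunit of the general transcription factor TFIID, by 0.70. SFMBT2 (log2 fold change 0.53) lost its call without the second shCon library (adjusted p = 0.16 in edgeR) and in limma on log2(TPM + 1) (adjusted p = 0.0651). Around the cluster of ITIH1, ITIH3 and ITIH4, 27 genes were tested, of which 7 rose and 7 fell, with a median log2 fold change of -0.046, also near that share. DNAH1 (1.63) and NISCH (0.96) rose and CACNA1D (-1.47) and GLYCTK (-1.28) fell there.

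**Figure D4:**
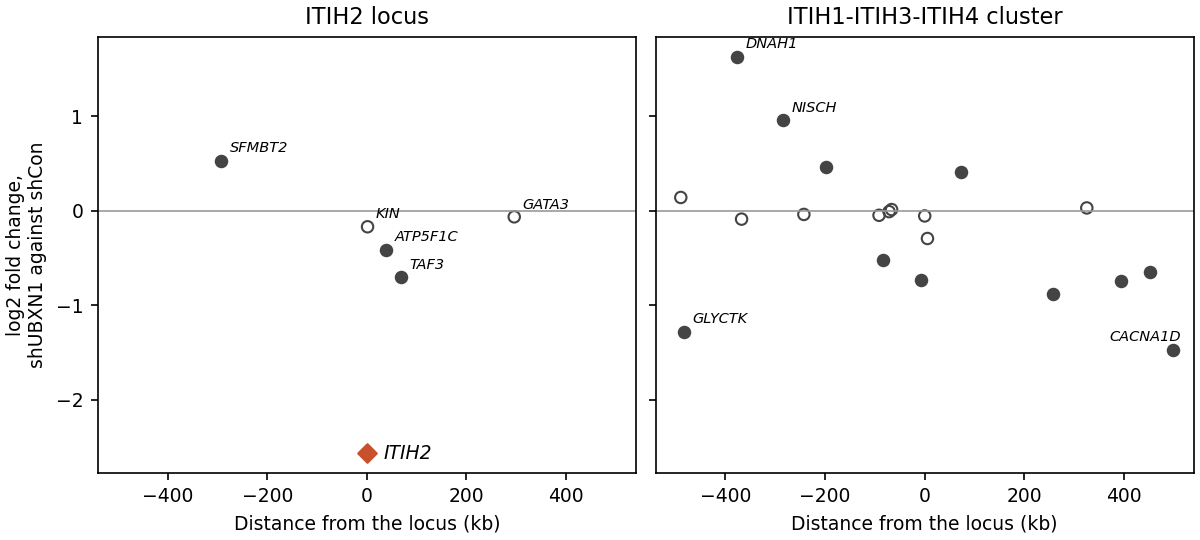
Log2 fold change of shUBXN1 against shCon for genes tested with a mean log2 CPM above 1 within 500 kb of ITIH2 (left) and of the ITIH1-ITIH3-ITIH4 cluster (right), by distance in kb from the locus, with filled circles for an adjusted p under 0.05 and a diamond for ITIH2, which was not tested. The neighbours of ITIH2 stand between -0.70 and 0.53, and ITIH2, which was chosen by its fall, at -2.56.

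The genes whose pattern over the 4 libraries was most like that of ITIH2 were found by the Euclidean distance of their centred log2(CPM + 0.1) values among 11911 protein-coding genes with a mean log2 CPM above 1. With 2 groups this measure mostly finds falls of the same size. The nearest were RASD1 (distance 0.133), CPLX2 (0.135), AGR2 (0.190), STRADB (0.192) and MYBL2 (0.217). RASD1, a RAS-related GTPase, was at 21.0 and 21.6 CPM in shCon and at 3.52 and 3.55 CPM in shUBXN1. CPLX2, a regulator of vesicle fusion, was close to ITIH2 in level as well, at 178 and 196 CPM in shCon and 29.6 and 34.9 CPM in shUBXN1. AGR2, which folds secreted proteins in the endoplasmic reticulum, was at 150 and 164 CPM in shCon and at 28.3 and 29.8 CPM in shUBXN1.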

How the data were processed

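RNA of MHCC97H cells was sequenced in 4 libraries (2 shCon, 2 shUBXN1). The authors deposited expected counts per gene, given to 2 decimals and not normalized, with a gene length. The submitters' processing notes list HISAT2 2.0.4, StringTie 1.3.0 and GRCh37, whereas the paper's methods name GRCh38. The counting tool, annotation release and use of strand are not given in the sources used here. The table holds no coordinates, so positions and exons were read from GENCODE 44 on GRCh38 by gene ID, in which 99.7% of IDs matched.

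Rounded counts went through filterByExpr, TMM scaling and the quasi-likelihood test (glmQLFit, then glmQLFTest) of edgeR 4.0.16 (R 4.3.3), with no block. Genes were called at a Benjamini-Hochberg adjusted p under 0.05 over the 16863 genes tested. Standard errors are the log2 fold change over the root of F. Means and SDs are of TMM-scaled CPM of the unrounded counts, and TPM used the deposited lengths. Replicates differed beyond sampling noise (chi-square per degree of freedom 3.65 and 7.77), and the biological coefficient of variation was 0.0711. Depth was 23373700 to 27380508 counts per library.

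The members and lists were chosen with earlier results of these data known. Besides the members, ITIH6, AMBP and UBXN1, the rule named up to 4 genes per list, and per locus within 500 kb, that were called, had a mean log2 CPM over 1 and changed most, the most abundant gene of each list and the 5 genes most like ITIH2. KRT18, HNF4A, AFP, APOA1, TTR, GPC3, PTPRC, CD3E, HAS3, BCL2L11, PTX3, CRP, SAA1, SAA2, SAA4, KIN, IL6, JAK1, JAK2, STAT3, CEBPB, CEBPD and IL6R were named after their values were seen. Some genes that the rule picked are counted in their lists but not reported by name here. Alternatives were DESeq2 1.42.0, total count scaling, limma 3.58.1 (voom, and log2(TPM + 1)), no filter, at least 10 counts in every library, a robust GC trend removed, a replicate block, each library left out and, added after seeing the data, unrounded counts.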

Additional observations from a re-analysis of the deposited data

How the results depend on the processing

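ITIH2 stayed between -2.67 and -2.46 on the log2 scale over the 13 alternatives. UBXN1 (-2.13 to -1.93) and BIK (1.25 to 1.43) kept their direction and their call in all of them. AMBP kept its direction, but DESeq2 gave -0.37 with an adjusted p of 0.063, and leaving out 1 library at a time moved it from -0.44 to -0.31, missing the threshold without either shCon library. Genes that changed at least 2-fold with p under 0.05 before adjustment numbered 1997 higher and 1027 lower, against 1028 and 524 in limma on log2(TPM + 1) and 1321 higher with at least 10 counts in every library. Without the filter, the median of the hyaluronan binding list was 0.032 against -0.43. Of the 51 other genes that the rule picked from lists and loci, 9 changed their call in at least 1 setting and none changed direction. This tally leaves out genes named after their values were seen. Among those, BCL2L11, JAK1, JAK2, IL6R and HNF4A lost their calls in at least 1 setting, as given above. Same-numbered libraries of the groups did not deviate together (r = 0.039 over genes, which are not independent replicates). With 2 libraries per group this cannot show whether they share a culture or preparation. A replicate block gave 5000 genes higher and 5023 lower at an adjusted p under 0.05, against 4727 and 4751 without it, and BIK at 1.34, AMBP at -0.37, UBXN1 at -2.03 and ITIH2 at -2.56. The 6 low genes could be tested only without the filter, apart from ITIH4, which also passed it with either shCon library left out (adjusted p = 0.549 and 0.213 in edgeR). With 2 libraries per group, small changes such as that of AMBP are at the limit of this depth and replication.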
